A study of Mus musculus with 2 samples.

Results

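The 7 myelin genes, *Mbp*, *Pmp22*, *Mag*, *Mal*, *Prx*, *Cnp* and *Egr2*, were followed in the Schwann cells of healing mouse skin wounds, where 1134 of 4648 cells that passed filters were taken as Schwann cells because they held at least 1 UMI (a unique molecular identifier, which marks 1 captured RNA molecule) of at least 2 of the 4 genes *Sox10*, *S100b*, *Gpm6b* and *Cadm4*. None of the 7 genes took part in that choice. All 7 were in the count table of 27998 genes, and all 7 were detected in Schwann cells of both libraries.

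Myelin is the membrane sheath that Schwann cells wrap around large axons of peripheral nerves, while other Schwann cells hold bundles of small axons without making a sheath, which is the common form in the nerve endings of skin. After injury, myelinating Schwann cells lower their myelin genes and take on a repair state, and *Egr2* is the transcription factor that drives the myelin genes when the sheath is built. *Mbp* encodes myelin basic protein, which seals the inner faces of compact myelin. *Pmp22* encodes a membrane protein of compact peripheral myelin, *Mag* an adhesion molecule facing the axon, *Mal* a lipid raft protein that sorts membrane to the sheath, *Prx* periaxin, a scaffold of the outer sheath, and *Cnp* an enzyme of the non-compacted cytoplasm.

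The study asked how Hedgehog activation acts on wound dermal cells of the SM22 lineage, and each genotype gave 1 library. The control mice were SM22rtTA; tetO-Cre; R26-Tomato and the *SM22-SmoM2* mice SM22rtTA; tetO-Cre; R26-SmoM2/Tomato, so that both carried the doxycycline-induced Cre system and the Tomato reporter and differed in SmoM2, a constantly active form of the Hedgehog receptor component Smoothened. Mice were 4 to 5 weeks old, received chow with doxycycline at 20 g/kg from post-wound day 1, and wound tissue was collected 3 days after the epidermis had fully closed. Dermis was freed from epidermis in 20 mM EDTA, dissociated, and Tomato-positive cells were sorted and run on the 10x Chromium 3' v2 system. The SM22 (*Tagln*) promoter that drives the system is known for its activity in smooth muscle and myofibroblasts, and the Schwann cells seen here are those that were sorted as Tomato-positive. *Tagln* was detected in 25.2% of the control and 30.0% of the *SM22-SmoM2* Schwann cells. Wounds of several mice were pooled in each library, and mouse cannot be told apart from genotype. With 1 library per genotype there is no replicate check and no test between genotypes. Levels are UMIs per 1000000 UMIs summed over the cells of a group (CPM), and all intervals are exact 95% intervals that cover counting error only.

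After filtering there were 2856 control and 1792 *SM22-SmoM2* cells. The median depth was 8607.5 and 8837.5 UMIs, and single cells ranged from 3128 to 65167 and from 2538 to 38806 UMIs. *Ptch1*, a Hedgehog target gene, was at 11.1 and 143.7 CPM in control and *SM22-SmoM2* fibroblasts. Over all Schwann cells by the rule it was at 16.2 CPM (13.3 to 19.5 CPM) and 42.5 CPM (35.1 to 51.0 CPM), and in those that lay in Schwann-like clusters at 13.3 CPM (10.2 to 17.0 CPM) and 19.3 CPM (13.7 to 26.5 CPM), where the intervals overlapped. *Smo* itself was at 22.1 and 31.5 CPM in the Schwann cells of Schwann-like clusters, with intervals of 18.0 to 26.8 and 24.1 to 40.4 CPM. The 3' counts were not checked for whether they reach the part of the transcript that differs in SmoM2, so this value does not check the label. The barcodes listed for both libraries were the whole kit list, so barcodes shared between the libraries could not be counted.

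The rule took 801 control and 333 *SM22-SmoM2* cells. The 8 Schwann markers *Sox10*, *S100b*, *Gpm6b*, *Cadm4*, *Erbb3*, *Cdh19*, *Ngfr* and *Foxd3* were all detected in them and summed to 2286 CPM (control) and 2001 CPM (*SM22-SmoM2*), against 61.9 and 32.6 CPM in cells of other lineages. The genes of the rule are among these markers, and the other lineages hold only cells outside it. The choice of cells thus set part of this contrast in advance. Of the cells taken, 666 (83.1%, 80.4 to 85.7%) of the control and 280 (84.1%, 79.7 to 87.8%) of the *SM22-SmoM2* cells also lay in 3 clusters that were Schwann-like by these markers. The remaining 135 and 53 cells lay in other clusters, 75 and 39 of them in fibroblast-like ones, and were deeper, with medians of 14104 and 13718 UMIs against 5997.5 and 5717 UMIs. They held 30.1% and 27.9% of the UMIs of all Schwann cells by the rule. The 6 fibroblast markers summed to 8130 and 7615 CPM over the Schwann cells by the rule, to 2920 and 3048 CPM in those of the Schwann-like clusters, and to 22380 and 17527 CPM in the other lineages. The 5 melanocyte markers (*Dct*, *Pmel*, *Tyrp1*, *Mlana*, *Mitf*), of a lineage that shares its neural crest origin with Schwann cells, summed to 114.5 and 20.1 CPM in the Schwann cells by the rule. The part of depth and of fibroblast RNA in meeting the rule was not tested, and values are also given for the Schwann cells within Schwann-like clusters, which were built without the 7 genes and without the other myelin genes listed below.

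The promoters of 3 genes are printed because *Pmp22* is the member that other lineages also held at high levels, while *Mag* and *Cnp* are the members with a match to a SOX motif among the 6 that were searched, which left out *Mbp*. Each runs from 250 bases before to 50 bases after the most upstream RefSeq start site of the gene on GRCm38.p6, written 5' to 3' on the gene's strand, with SOX matches in capitals. They lie at chr11:63128732-63129031 (+) for *Pmp22*, chr7:30914873-30915172 (-) for *Mag* and chr11:100574689-100574988 (+) for *Cnp*.
Pmp22: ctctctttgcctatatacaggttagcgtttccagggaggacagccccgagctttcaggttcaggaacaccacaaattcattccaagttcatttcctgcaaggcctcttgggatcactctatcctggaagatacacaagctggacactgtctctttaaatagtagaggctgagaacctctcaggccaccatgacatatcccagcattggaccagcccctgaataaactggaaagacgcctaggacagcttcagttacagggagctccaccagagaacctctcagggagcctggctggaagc
Mag: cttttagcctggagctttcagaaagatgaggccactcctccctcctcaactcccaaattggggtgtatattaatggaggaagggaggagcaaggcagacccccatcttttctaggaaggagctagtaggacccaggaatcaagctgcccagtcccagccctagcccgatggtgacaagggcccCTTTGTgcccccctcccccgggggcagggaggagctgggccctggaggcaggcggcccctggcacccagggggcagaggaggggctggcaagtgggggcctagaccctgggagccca
Cnp: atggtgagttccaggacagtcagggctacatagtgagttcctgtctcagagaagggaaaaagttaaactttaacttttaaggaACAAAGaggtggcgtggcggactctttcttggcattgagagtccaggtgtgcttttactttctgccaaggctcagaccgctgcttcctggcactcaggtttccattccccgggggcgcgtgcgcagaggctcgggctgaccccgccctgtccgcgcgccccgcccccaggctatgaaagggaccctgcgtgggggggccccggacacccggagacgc

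The letters ACAAAG and ACAATG, cores of sites for SOX factors such as SOX10, and GCGNGGGCG, a site of the EGR factors, were searched on both strands in the 15 promoters of 6 of the genes. ACAAAG was found in *Mag*, as its reverse complement CTTTGT from position -67, and in *Cnp* from position -167. Of the 15 promoters 3 held ACAAAG and 0 held ACAATG. Of 32851 mouse promoters of the same length 18.7% held ACAAAG, 12.6% ACAATG and 28.6% either one. The EGR letters were in 0 of the 15 promoters and in 5.55% of all promoters. These are matches of letters and not evidence of binding.

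In the GENCODE annotation of mm10 (GRCm38) *Mbp* lies on chromosome 18 (82475146 to 82585637, + strand), *Pmp22* on chromosome 11 (63128982 to 63159547, +), *Mag* on chromosome 7 (30899176 to 30914873, -), *Mal* on chromosome 2 (127633226 to 127656695, -), *Prx* on chromosome 7 (27499324 to 27520214, +), *Cnp* on chromosome 11 (100574904 to 100591729, +) and *Egr2* on chromosome 10 (67535475 to 67542188, +). *Cnp* overlaps *Dnajc7* and *Prx* overlaps *Gm15541*, each on the opposite strand and each with its own entry in the count table.

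All 7 genes were higher in Schwann cells than in the other lineages of the same library (fibroblast-, endothelial-, muscle-, immune- and keratinocyte-like clusters, 1959 control and 1359 *SM22-SmoM2* cells), but by amounts that ran from 1.99-fold (*Egr2* in *SM22-SmoM2*) to 155-fold (*Mbp* in *SM22-SmoM2*). Cells outside the rule in a mixed cluster and in a cluster that no marker list named were left out of these lineages. *Mbp*, *Mal* and *Mag* had few UMIs in the other lineages, *Cnp* stood between, and *Pmp22* and *Egr2* were found there at clear levels. For *Prx* in *SM22-SmoM2* the difference rested largely on 3 Schwann cells.

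*Mbp* was at 350.1 CPM in control Schwann cells (2336 UMIs, interval 336 to 365 CPM) and at 316 CPM in *SM22-SmoM2* ones (863 UMIs, 295 to 338 CPM). In the other lineages it was at 3.46 and 2.04 CPM, which makes the Schwann level 101-fold and 155-fold higher. In control fibroblasts 19 of the 54 *Mbp* UMIs came from a single cell.

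*Mal* was at 162 and 147 CPM in Schwann cells and at 2.46 and 1.55 CPM in the other lineages, log2 ratios of 6.05 (5.65 to 6.47) and 6.57 (5.95 to 7.26). The endothelial-like cells held most of what was found outside Schwann cells (6.63 CPM, 42 UMIs, in control and 9.08 CPM, 16 UMIs, in *SM22-SmoM2*), and the muscle-like cells held no *Mal* UMI in either library.

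*Mag* was sparse. It had 41 UMIs in 21 control Schwann cells (6.14 CPM, 4.41 to 8.34 CPM) and 32 UMIs in 7 *SM22-SmoM2* Schwann cells (11.7 CPM, 8.02 to 16.5 CPM). The other lineages held 7 and 2 UMIs, 5 of the control ones in 5 immune-like cells. These lay in the cluster led by *C1qb*, *C1qa* and *Lyz2*, whose 43 control cells were at 13.5 CPM (4.39 to 31.5 CPM). That interval overlaps the one of the control Schwann cells.

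*Cnp* was at 224 and 232 CPM in Schwann cells and at 20.6 and 15.5 CPM in the other lineages, log2 ratios of 3.44 (3.29 to 3.60) and 3.91 (3.69 to 4.14). Endothelial-like cells were at 31.6 and 29.5 CPM and fibroblasts at 13.8 and 13.0 CPM, so that its low level elsewhere differed between cell types in both libraries.

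*Pmp22* was at 750.0 CPM (5004 UMIs) in control Schwann cells and at 826 CPM (2256 UMIs) in *SM22-SmoM2* ones, 4.45-fold and 5.21-fold above the other lineages. The muscle-like cluster, whose leading genes were *Rgs5*, *Cox4i2* and *Ndufa4l2*, was at 447 CPM (416 to 480 CPM) in control and 361 CPM (310 to 418 CPM) in *SM22-SmoM2*, and fibroblasts were at 208 and 170.5 CPM. Set against the Schwann cells of the Schwann-like clusters, the muscle-like cells had 45.9% and 33.0% of the *Pmp22* level, while they had 0.376% and 1.44% of the *Mbp* level. Endothelial-like cells were at 30.3 and 32.9 CPM of *Pmp22*.

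*Prx* had 55 UMIs in control Schwann cells (8.24 CPM, 6.21 to 10.7 CPM) and 42 UMIs in *SM22-SmoM2* ones (15.4 CPM, 11.1 to 20.8 CPM). In the other lineages there were 44 UMIs in control and 76 (5.34 CPM) in *SM22-SmoM2*, which makes the Schwann level 4.12-fold and 2.88-fold higher.

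*Egr2* was at 84.2 CPM (562 UMIs) in control and 79.5 CPM (217 UMIs) in *SM22-SmoM2* Schwann cells. Its ratio to the other lineages was the smallest of the 7, 3.30-fold in control and 1.99-fold in *SM22-SmoM2*. Fibroblasts were at 25.8 and 43.0 CPM and muscle-like cells at 47.6 and 42.6 CPM. A cluster that no marker list named held *SM22-SmoM2* cells alone, with *Ibsp*, *Cd24a*, *Rspo3*, *Rspo1* and *Alpl* among its leading genes. Its 46 cells outside the rule were not part of the other lineages. They were at 163 CPM (119 to 218 CPM), above the 79.5 CPM of the *SM22-SmoM2* Schwann cells.

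**Figure D1:**
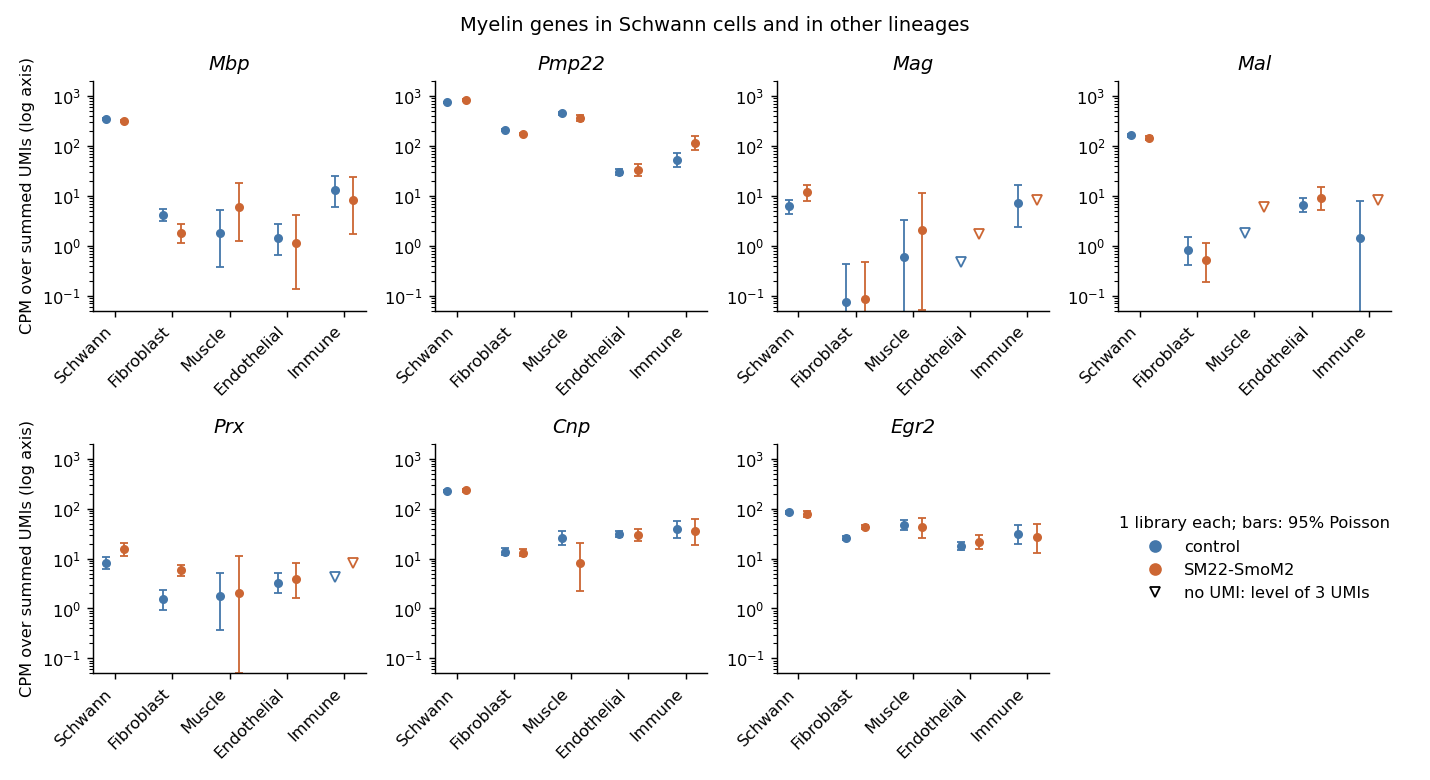
Level of each gene (CPM, log axis) in Schwann cells and in fibroblast-, muscle-, endothelial- and immune-like cells of the control and *SM22-SmoM2* libraries, with exact 95% Poisson intervals for counting error; open triangles mark the level that 3 UMIs would give where none was counted, and bars that reach under 0.05 CPM are cut by the axis. *Mbp* was at 350.1 CPM in control Schwann cells and 4.12 CPM in fibroblasts, while *Pmp22* was at 447 CPM in the control muscle-like cells.

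Within Schwann-like clusters the Schwann levels were 474 and 423 CPM for *Mbp*, 974 and 1092 CPM for *Pmp22*, 8.15 and 16.3 CPM for *Mag*, 224 and 196 CPM for *Mal*, 9.86 and 19.8 CPM for *Prx*, 301 and 310.3 CPM for *Cnp* and 101.9 and 92.9 CPM for *Egr2*. The Schwann cells by the rule in other clusters had less of each, for example 62.2 and 39.4 CPM of *Mbp* and 45.3 and 30.2 CPM of *Cnp*.

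Read against all genes, 6 of the 6 members with at least 50 UMIs were at least 2-fold higher in control Schwann cells (*Mag* had fewer UMIs), where 8.31% of 12327 genes were. In *SM22-SmoM2* it was 5 of 6, all but *Egr2*, where 8.37% of 11175 genes were. For *Prx* there, 24 of the 42 Schwann UMIs lay in 3 cells. The median log2 ratio of the members was 2.80 in control and 3.15 in *SM22-SmoM2*, against -0.03 and 0.06 over all genes.

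Other genes of the sheath were also higher in Schwann cells. Of 15 further myelin genes, 9 of the 9 with enough UMIs were at least 2-fold higher in control Schwann cells and 8 of 8 in *SM22-SmoM2*, with *Ncmap*, *Gldn*, *Gjc3*, *Cmtm5*, *Cd9* and *Cryab* among them in both libraries and *Pllp* in control. *Ncmap* had 46 UMIs in each library in the 4 and 3 cells rich in *Mbp* described below. All other Schwann cells held 9 and 13. For *Pllp* in control the numbers were 28 and 16. Of 12 regulators of myelination, 11 could be read, and *Sox10* (a gene of the rule) and *Pou3f1* were past 2-fold in both libraries, with *Nab2* in control and *Srebf1* in *SM22-SmoM2*, while *Nfatc4* was past 2-fold lower in both, as 13.8% and 11.9% of all genes were. Of 8 receptors for axon and matrix signals, *Erbb3*, *Adgrg6*, *Dag1* and *Ngfr* were past 2-fold higher in both. Of 16 genes of immature, non-myelinating and repair Schwann cells, 10 of 14 were higher in control and 6 of 11 in *SM22-SmoM2*, with *Sox2*, *Ngfr*, *L1cam*, *Gdnf*, *Cdh2* and *Scn7a* in both. Of the 20 readable genes of cholesterol and fatty acid synthesis, from which the lipid of myelin is made, 7 and 4 were, and of the 7 readable immediate early genes, 1 (*Atf3*) and 0 were.

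At full depth *Mbp* was detected in 67.2% of control and 53.5% of *SM22-SmoM2* Schwann cells by the rule. Since depth differed between lineages, detection was compared after each cell was thinned to 2500 UMIs, for which no cell was too shallow. Within Schwann-like clusters *Mbp* was then detected in 52.4% (48.5 to 56.3%) of control and 39.3% (33.5 to 45.3%) of *SM22-SmoM2* Schwann cells. In fibroblasts, whose median depth before thinning was 12152 and 11111.5 UMIs, the shares were 0.581% and 0.988%. *Mal* was detected in 40.7% (36.9 to 44.5%) and 31.4% (26.03 to 37.2%), against 0.484% and 0.296% of fibroblasts. *Pmp22* was detected in 81.8% (78.7 to 84.7%) and 75.0% (69.5 to 80.0%), but also in 35.9% and 30.2% of fibroblasts and 64.0% and 52.3% of muscle-like cells. *Cnp* (48.6 and 49.3%) and *Egr2* (21.5 and 21.8%) had closely similar shares in both libraries. *Mag* was detected in 0.751% and 2.14% of Schwann cells and in none of 1032 control and 1012 *SM22-SmoM2* fibroblasts, which allows shares of up to 0.291% and 0.296% (3 counts of the total), at a depth where few Schwann cells held it either. *Egr2* was detected in 6.202% and 9.29% of fibroblasts.

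**Figure D2:**
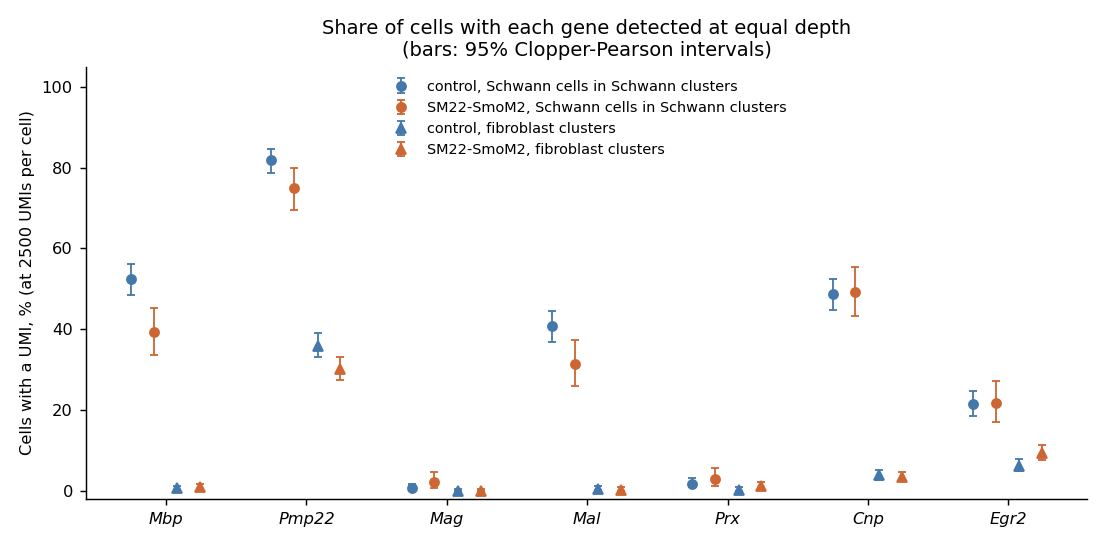
Percent of cells with at least 1 UMI of each gene after thinning every cell to 2500 UMIs, in Schwann cells of Schwann-like clusters and in fibroblasts of both libraries, with exact 95% Clopper-Pearson intervals. In control, *Mbp* was detected in 52.4% of these Schwann cells and 0.581% of fibroblasts, and *Pmp22* in 35.9% of fibroblasts.

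At this depth 48.8% (44.9 to 52.7%) of control and 40.7% (34.9 to 46.7%) of *SM22-SmoM2* Schwann cells in Schwann-like clusters held at least 3 of the 7 genes, and 0.0969% and 0.0988% of fibroblasts did, 1 cell in each library. All 6 other members were found in a larger share of the Schwann cells that also held *Mbp*, in both libraries. For *Mag* this rested on only 3 and 2 cells in control and 5 and 1 in *SM22-SmoM2*, and for *Prx* in *SM22-SmoM2* on 6 and 2. Without the cells rich in *Mbp* described below, *Mag* in control turned, with 0.580% of cells with *Mbp* and 0.631% of those without. The other values kept their direction. The intervals over all these cells did not overlap for *Pmp22* and *Mal* in control and for *Cnp* in *SM22-SmoM2*. *Pmp22* was found in 86.5% (82.5 to 89.9%) of control Schwann cells with *Mbp* and 76.7% (71.6 to 81.2%) of those without, and in 83.6% and 69.4% in *SM22-SmoM2*. *Cnp* was found in 52.1% of control Schwann cells with *Mbp* and 44.8% of those without, and in 64.5% (54.9 to 73.4%) and 39.4% (32.0 to 47.2%) in *SM22-SmoM2*. *Mal* was found in 46.1% (40.8 to 51.5%) with and 34.7% (29.5 to 40.2%) without *Mbp* in control, and in 39.1% and 26.5% in *SM22-SmoM2*. These cells were thinned to the same depth, but detection of several genes in 1 cell still shares that cell's library.

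Most Schwann cells held little of any myelin gene, and a very few held much. In control, 538 of the 801 Schwann cells held *Mbp*, of which 156 had 1 UMI, 295 had 2 to 5 and 87 had more than 5. In *SM22-SmoM2*, 178 of the 333 held *Mbp*, of which 72 had 1 UMI, 84 had 2 to 5 and 22 had more than 5. A few cells stood far above this. In 4 control and 3 *SM22-SmoM2* Schwann cells *Mbp* made up at least 0.5% of all UMIs, a threshold set after these values were seen. The 4 control cells were at 1.56, 1.49, 0.714 and 0.693%, and the next cell was at 0.401%. The 3 *SM22-SmoM2* cells were at 1.33, 1.31 and 1.04%, and the next was at 0.364%. All 7 lay in the Schwann-like cluster with *Sostdc1* and *Egfl8* among its leading genes. Scrublet, a doublet caller, marked none of them, but it marked only 5 control and 11 *SM22-SmoM2* cells in all and is not a working doublet check here.

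The cell richest in myelin genes, in the *SM22-SmoM2* library, held 652 *Pmp22*, 252 *Mbp*, 69 *Mal*, 54 *Cnp*, 15 *Mag*, 13 *Prx* and 3 *Egr2* UMIs of 18933, with 5.20% mitochondrial UMIs. The control cell with most *Mbp* held 251 *Mbp*, 294 *Pmp22*, 22 *Mal*, 23 *Cnp*, 15 *Mag*, 10 *Prx* and no *Egr2* UMIs of 16888. The cells above the threshold were 0.499% of control and 0.901% of *SM22-SmoM2* Schwann cells and 0.625% and 1.13% of their UMIs. They held 21.4% of the *Mbp* UMIs in control and 45.5% in *SM22-SmoM2*, values that the choice of the cells sets, and 12.8% and 38.8% of *Pmp22*. Of the *Mag* UMIs they held 19 of 41 and 24 of 32, and of the *Prx* UMIs 15 of 55 and 24 of 42. They held 5.36% and 21.7% of *Mal* and 4.49% and 15.1% of *Cnp*, but only 0.890% and 1.84% of *Egr2*, 5 and 4 UMIs.

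**Figure D3:**
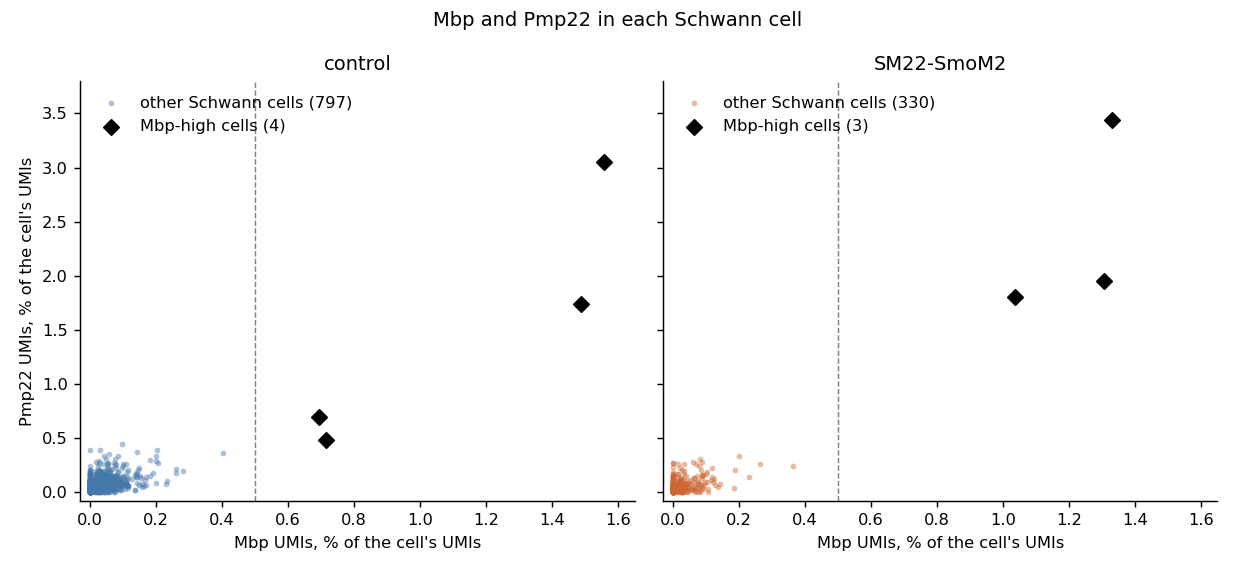
Each point is 1 Schwann cell of the control or *SM22-SmoM2* library, placed by the percent of its UMIs that were *Mbp* and *Pmp22*, with cells at or above 0.5% *Mbp* marked. The 4 control and 3 *SM22-SmoM2* cells above that line stood apart from the rest on the *Mbp* axis and most also on the *Pmp22* axis.

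Against the other Schwann cells of their library, the cells above the threshold had more of the members that did not choose them, with *Egr2* as the exception. *Pmp22* was higher by 4.54 (4.42 to 4.66) on the log2 scale in control and 5.80 (5.67 to 5.92) in *SM22-SmoM2*, *Mag* by 7.10 and 8.04, *Prx* by 5.90 and 6.87, *Mal* by 3.17 and 4.60 and *Cnp* by 2.90 and 3.97. *Egr2* was at 0.51 (-1.12 to 1.74) and 0.72 (-1.17 to 2.10). Of the members with enough expected UMIs, 4 of 5 and 4 of 4 were at least 2-fold higher, where 6.02% of 2375 and 7.18% of 1672 genes were. *Mbp* is counted among them in both libraries, and its call was set in advance by the choice of the cells. Other sheath genes were higher too. *Ncmap*, a membrane protein of non-compact myelin, differed by 9.67 (46 UMIs against 9) and 8.28 (46 against 13). *Pllp*, plasmolipin, had 28 and 29 UMIs in these cells and 16 and 6 in all the others. *Pou3f1*, a transcription factor of the promyelinating stage, was higher by 2.68 (2.05 to 3.24) and 3.47 (2.93 to 3.96). The 21 genes of cholesterol and fatty acid synthesis summed to 3140 CPM in the control cells above the threshold and 557 CPM in the others, and to 3312 and 556 CPM in *SM22-SmoM2*, log2 differences of 2.49 (2.23 to 2.75) and 2.58 (2.27 to 2.87). *Hmgcs1*, an early enzyme of cholesterol synthesis, had 23 and 18 UMIs in these cells, 3.52 and 3.40 higher on the log2 scale.

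Genes of non-myelinating and repair Schwann cells were not higher as a group in these cells. Their 16 genes summed to 2469 CPM against 2169 CPM in control (log2 difference 0.19, -0.11 to 0.47) and to 1461 against 1964 CPM in *SM22-SmoM2* (-0.43, -0.88 to -0.00). The sums rested largely on *Jun*, with 53 of 103 UMIs in the control cells and 23 of 45 in the *SM22-SmoM2* cells. No UMI was counted in these cells for 7 and 9 of the 16 genes. The cells held 41714 UMIs in control and 30798 in *SM22-SmoM2*. A count of 0 there still allows up to 88.4 and 119.8 CPM by the exact intervals, so these zeros do not show absence. *L1cam*, an adhesion molecule of non-myelinating Schwann cells, had no UMI in any of the 7 cells. It was at 83.7 and 90.4 CPM in the other Schwann cells, levels that lie within these bounds. *Ngfr*, the p75 receptor, had no UMI in the 3 *SM22-SmoM2* cells and 7 in the 4 control cells, 4 of them in the cell with the lowest *Mbp* share of the 4. That cell also held 4 *Scn7a* UMIs of 3605, unlike the other 3, which held none. *Jun*, a regulator of the repair state, was at 1271 CPM against 1007 CPM in control and 747 against 859 CPM in *SM22-SmoM2*.

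Over all Schwann cells *Prx* and *Mag* were higher in *SM22-SmoM2*, while the other 5 genes differed less between the libraries. On the log2 scale of *SM22-SmoM2* over control, *Mbp* was at -0.15 (-0.26 to -0.03), *Mal* at -0.14 (-0.31 to 0.02), *Egr2* at -0.08 (-0.32 to 0.14), *Cnp* at 0.05 (-0.08 to 0.19) and *Pmp22* at 0.14 (0.07 to 0.21). *Prx* was at 0.90 (0.28 to 1.51) and *Mag* at 0.93 (0.22 to 1.63). None of the 7 differed by 2-fold, where 1.09% of 9868 genes were higher and 3.10% lower by that much. Within Schwann-like clusters *Prx* passed 2-fold with a log2 ratio of 1.01, where 1.18% of 8575 genes did so upward and 1.85% downward.

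Much of this rested on the few cells richest in *Mbp*. Without them the control Schwann cells had 277 CPM of *Mbp* and the *SM22-SmoM2* ones 174 CPM, a log2 ratio of -0.67 (-0.82 to -0.52). *Pmp22* was at 658 and 511 CPM and its ratio turned from 0.14 to -0.36 (-0.45 to -0.28). *Mal* was at 154 and 116 CPM (-0.41, -0.60 to -0.23). *Mag* had 22 and 8 UMIs left (-0.16, -1.54 to 1.06) and *Prx* 40 and 18 (0.14, -0.75 to 0.98). *Cnp* (-0.11, -0.26 to 0.03) and *Egr2* (-0.09, -0.33 to 0.14) moved little. Other settings turned these ratios too: *Pmp22* was at -0.35 with at most 5% mitochondrial UMIs, which removes the *SM22-SmoM2* cell richest in myelin genes, and *Mbp* at 0.033 among cells with Y-linked UMIs and no *Xist*. The share of cells at equal depth, which gives each cell the same weight, was lower in *SM22-SmoM2* beyond the intervals for *Mbp*, while the intervals of the libraries overlapped for the other 6 genes. With 1 library each, these differences compare 2 pools of wounds and not the genotypes.

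**Figure D4:**
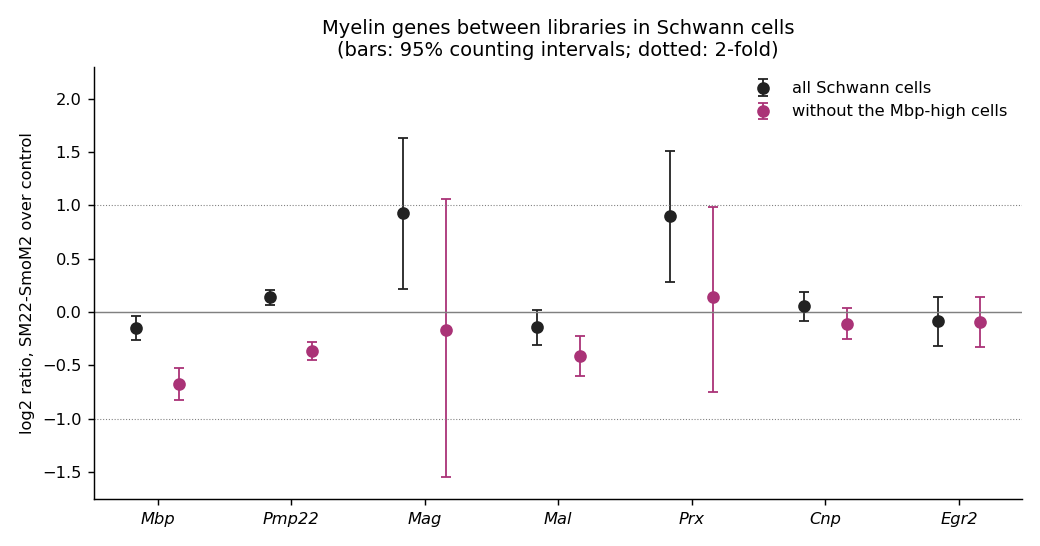
Log2 ratio of *SM22-SmoM2* over control for each gene, over all Schwann cells by the rule and without the Mbp-high cells, in which *Mbp* takes at least 0.5% of UMIs; bars are exact 95% intervals for counting error and dotted lines mark 2-fold. *Pmp22* lay above 0 with all cells (0.14) and below 0 without those few (-0.36).

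Among the other lists, *Ncmap* was the 1 further myelin gene past 2-fold higher in *SM22-SmoM2* Schwann cells (log2 ratio 1.39, 0.84 to 1.95, from 59 and 55 UMIs), and 46 of its UMIs in each library came from the cells richest in *Mbp*. *Gfap*, an intermediate filament gene of non-myelinating Schwann cells, was lower by 2-fold or more (-1.52, -2.20 to -0.90, from 24 and 168 UMIs), as was *Artn*, which encodes a ligand of the receptor that *Gfra3* codes for (-1.35, -2.55 to -0.32, from 9 and 56 UMIs). No regulator, receptor, cholesterol or immediate early gene of the lists passed 2-fold.

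Outside Schwann cells, *Prx* was at 1.53 CPM (20 UMIs) in control and 5.86 CPM (68 UMIs in 61 cells) in *SM22-SmoM2* fibroblasts. The log2 ratio was 1.94 (1.20 to 2.74). In *SM22-SmoM2* it was at 10.0, 7.28 and 5.51 CPM in the fibroblast clusters led by *Egfl6*, *Penk* and *Areg*, which held 6, 40 and 6 control cells. In those led by *Crabp1*, *Mmp3* and *Gm26870*, with more cells of both libraries, it was at 1.62, 1.31 and 0 CPM in control. There *SM22-SmoM2* cells were at 2.27, 2.02 and 3.00 CPM. The part of cluster make-up in the ratio was not tested. On the log2 scale *Egr2* in fibroblasts was at 0.74 (0.54 to 0.94). *Mbp* in fibroblasts was at -1.19 (-1.99 to -0.44), with 54 and 21 UMIs. Of the 5 members with at least 50 UMIs there, *Prx* was past 2-fold higher and *Mbp* lower, where 4.72% and 5.17% of 11354 genes were. A single control cell held 19 of the *Mbp* UMIs, and without it, a comparison added after seeing the data, the ratio was -0.56 (-1.42 to 0.26), no longer past 2-fold.

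Detection of *Egfl8*, which encodes a secreted protein with EGF-like domains, and *Gfra3*, the artemin co-receptor, divided the Schwann cells by the rule into 4 classes. In control 259 cells held *Egfl8* alone, 57 *Gfra3* alone, 350 both and 135 neither. In *SM22-SmoM2* the numbers were 123, 12, 98 and 100, so that cells with both were 43.7% of the control and 29.4% of the *SM22-SmoM2* Schwann cells. Depth differed between classes. Their median UMIs were 6621, 5057, 6027 and 11234 in control and 6597, 3760, 5452 and 8644.5 in *SM22-SmoM2*, so that cells with neither gene were the deepest.

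*Mbp* was highest in cells with both genes in control (502 CPM, 475 to 531 CPM), then in those with *Egfl8* alone (400.0 CPM, 374 to 428 CPM), *Gfra3* alone (281 CPM, 229 to 342 CPM) and neither (55.5 CPM). In *SM22-SmoM2* the class with *Egfl8* alone led (610.2 CPM, 563 to 661 CPM), followed by both (264 CPM, 226 to 306 CPM), *Gfra3* alone (104 CPM from 7 UMIs, 42.0 to 215 CPM) and neither (74.5 CPM), of which neighbours the intervals of the last 2 overlapped. All 3 *SM22-SmoM2* cells richest in *Mbp* were in the class with *Egfl8* alone, and of the 4 in control 2 were in that class and 2 held both genes. Without these cells the class with *Egfl8* alone was at 245 and 221 CPM in control and *SM22-SmoM2*.

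*Pmp22* followed the same order as *Mbp* in each library, with 968, 843, 676 and 294 CPM in control (both, *Egfl8* alone, *Gfra3* alone, neither) and 740.0, 1478, 477 and 263 CPM in *SM22-SmoM2*. *Mal* was at 240, 163, 156 and 38.6 CPM in control, and 151, 234, 89.4 and 62.6 CPM in *SM22-SmoM2*. *Cnp* was at 303, 252, 247 and 54.2 CPM in control, and 306, 340.3, 209 and 78.5 CPM in *SM22-SmoM2*. *Egr2* was at 106, 94.3, 76.7 and 38.0 CPM in control and 88.9, 108, 29.8 (2 UMIs) and 48.7 CPM in *SM22-SmoM2*. Without the cells richest in *Mbp* the *SM22-SmoM2* class with *Egfl8* alone was at 615 CPM of *Pmp22* (567 to 667 CPM), below the 740.0 CPM (676 to 808 CPM) of cells with both genes, at 150.7 CPM of *Mal* and at 251 CPM of *Cnp*, and the same class was at 221 CPM of *Mbp* against 264 CPM with both. No *Mag* UMI was counted in cells with neither gene in either library.

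**Figure D5:**
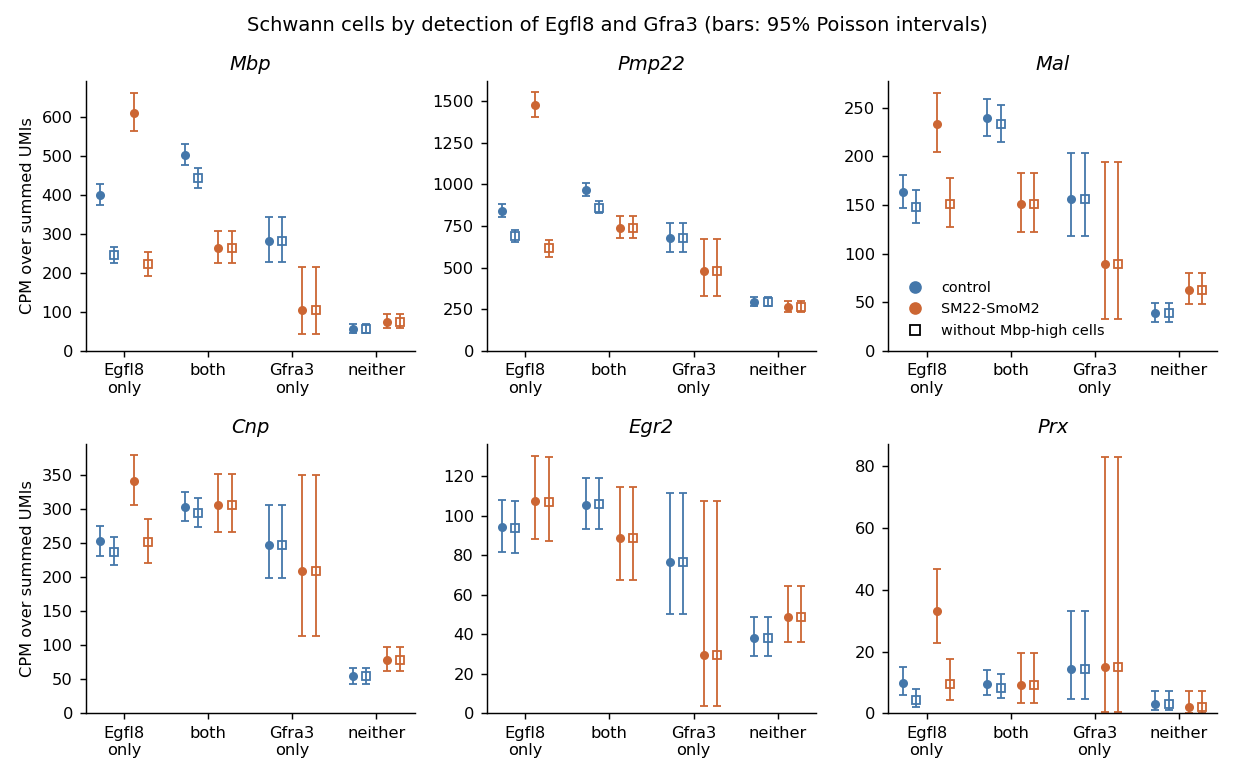
Level of *Mbp*, *Pmp22*, *Mal*, *Cnp*, *Egr2* and *Prx* (CPM) in Schwann cells with *Egfl8* alone, *Gfra3* alone, both or neither, in the control and *SM22-SmoM2* libraries, with exact 95% Poisson intervals; filled circles are all cells and open squares leave out the Mbp-high cells. Cells with neither gene were lowest for *Mbp* in both libraries (55.5 and 74.5 CPM).

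Of the cells with neither gene, 56 of 135 in control and 58 of 100 in *SM22-SmoM2* lay within Schwann-like clusters. These were at 174 and 151 CPM of *Mbp*, above the values over all cells with neither gene, and below the 539 and 276 CPM of cells with both genes within the same clusters. The log2 difference between cells with both and with neither was 1.63 (1.29 to 1.98) and 0.87 (0.45 to 1.31) for *Mbp*, 0.74 and 0.71 for *Pmp22*, 1.23 and 0.98 for *Cnp* and 0.99 and 0.97 for *Egr2*.

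Between *Egfl8* alone and *Gfra3* alone, the control ratios were small. On the log2 scale *Mbp* was at 0.51 (0.21 to 0.82), *Pmp22* at 0.32 (0.12 to 0.52), *Egr2* at 0.30 (-0.28 to 0.94), *Mal* at 0.06 (-0.35 to 0.50) and *Cnp* at 0.03 (-0.30 to 0.37), and 0 of these 5 members passed 2-fold, where 5.54% of 5996 genes did upward. Without the 2 cells richest in *Mbp* in that class, *Mbp* turned to -0.20 (-0.51 to 0.13) and *Pmp22* was at 0.03 (-0.17 to 0.23). In *SM22-SmoM2*, where 12 cells held *Gfra3* alone, *Mbp* was at 2.55 (1.499 to 3.87), *Pmp22* at 1.63 (1.13 to 2.18), *Mal* at 1.39 (0.24 to 2.85), *Egr2* at 1.85 (-0.03 to 4.92) and *Cnp* at 0.71 (-0.06 to 1.59), so that 4 of 5 members passed 2-fold, where 13.4% of 3274 genes did. Without the 3 cells richest in *Mbp*, *Mbp* was at 1.08 (0.02 to 2.42), *Pmp22* at 0.37 (-0.15 to 0.93) and *Mal* at 0.75 (-0.40 to 2.22).

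The 3 Schwann-like clusters differed in the members although none of them was used to build the clusters. The cluster with *Sostdc1* and *Egfl8* among its leading genes was at 622 CPM of *Mbp* in control and 743 CPM in *SM22-SmoM2*, the one with *Gfra3*, *Fabp7* and *Gpm6b* at 412 and 286 CPM, and the one with *Crym*, *Hist1h2ap*, *Pbk* and *Stmn1* at 174 and 89.5 CPM. The first of these held all 7 cells richest in *Mbp*, and without them it was at 393 CPM (367 to 421 CPM) and 280.1 CPM (245 to 319 CPM), near the second. In the last cluster the cell division gene *Top2a* was at 392 and 369 CPM, against at most 16.9 CPM in the others, and no *Mag* UMI was counted in its 60 control and 48 *SM22-SmoM2* cells. *Pmp22* was at 1224, 784 and 722 CPM in control, and 1681, 700.5 and 623 CPM in *SM22-SmoM2*, and the first cluster was at 939 and 650.3 CPM without the cells richest in *Mbp*. *Cnp* in the first cluster was at 356 and 321 CPM without them, against 257 and 310.6 CPM in the second and 168 and 139.5 CPM in the third. *Egr2* was at 120.0, 85.3 and 93.4 CPM in control, and at 124, 77.6 and 62.6 CPM in *SM22-SmoM2*.

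At equal depth within Schwann-like clusters, *Mbp* was detected in 58.7% (50.2 to 66.9%) of control Schwann cells with *Egr2* and 50.7% (46.3 to 55.0%) of those without, and in 52.5% (39.3 to 65.4%) and 35.6% (29.3 to 42.3%) in *SM22-SmoM2*, higher with *Egr2* in both libraries with intervals that overlapped. The summed level of *Mbp* over all Schwann cells by the rule at full depth gave no such common direction. That comparison differs from the shares in the cells and the depth used as well as in the measure. Schwann cells by the rule with an *Egr2* UMI, 308 in control and 131 in *SM22-SmoM2*, differed from those without by -0.17 (-0.29 to -0.05) in control and 1.08 (0.87 to 1.28) in *SM22-SmoM2* on the log2 scale of *Mbp*. Without the cells richest in *Mbp* the values were 0.10 (-0.03 to 0.24) and -0.03 (-0.30 to 0.23).

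Over the Schwann cells of each library (801 and 333 cells), the genes whose log-normalised value was most like that of the summed members, of 6561 genes ranked by the lower of the 2 Pearson correlations, included *Dbi* (r = 0.636 in control and 0.611 in *SM22-SmoM2*), *Gatm* (0.610 and 0.579), *Cd9* (0.581 and 0.539) and *Cadm4* (0.612 and 0.525), the last a gene of the rule. These points share a library and their depth. Within Schwann-like clusters (666 and 280 cells) *Cd9* (0.377 and 0.352), *Sparc* (0.344 and 0.464) and *Dbi* (0.358 and 0.317) were among the leading genes, and without the cells richest in *Mbp* *Dbi* (0.389 and 0.436), *Cd9*, *Prnp*, *Sparc* and *Matn2* did.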

How the data were processed

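The unit of the deposited matrices is UMI counts per gene and cell. Per the labels and the study's methods, the authors made them with bcl2fastq and Cell Ranger on mm10, and counted confidently mapped reads with valid barcodes after removing PCR duplicates; the Cell Ranger version and strand setting are not given in the sources used here. Of 2878 control and 1802 SM22-SmoM2 barcodes, 22 and 10 with more than 10% mitochondrial UMIs were left out, and all others had at least 200 genes. Analysis used Python 3.11.15, Scanpy 1.11.5, scikit-learn 1.9.0, SciPy 1.17.1 and NumPy 2.4.6. Lineages came from k-means clusters (K = 20, 50 starts) on 20 principal components of 2000 variable genes, without the 7 members and the other myelin genes, named from marker lists by cut-offs set after the clusters were seen. Scrublet marked 5 and 11 cells, under 0.5% of the control library and so not a working doublet check; marked cells were kept.

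UMIs were summed per library and group and scaled to CPM, with exact Poisson intervals, exact conditional intervals for ratios and Clopper-Pearson intervals for shares; a count of 0 was set to 3 UMIs for a bound. Counts over gene lists used genes with at least 50 UMIs over both sides (for the cells richest in Mbp, at least 3 expected UMIs in them), and a gene was called at 2-fold. With 1 library per genotype no test was run. The text names the members, the genes of the rule, genes of the lists and genes from the 5 most correlated with the summed members over the Schwann cells (in further subsets of cells likewise); cluster leading genes, Ptch1, Smo, Tagln, Top2a and single cells were chosen after their values were seen. The members and lists were chosen with earlier results of these data known. The ratio step was tested on simulated Poisson sums of UMIs, which hold no spread between cells. The thinning step was checked on cells of these data, for their totals only. Alternatives varied the rule, clusters, filters, depth and sex markers. Some genes of the lists and of the ranking are not reported here.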

Additional observations from a re-analysis of the deposited data

Results flagged for a closer look

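Some differences between the libraries went one way in one group of cells and the opposite way in another, with counting intervals off 0 on both sides. None of these differences between groups was tested, every value compares the same 2 libraries, and values are log2 ratios of SM22-SmoM2 over control.

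*Mbp* was at 0.61 in Schwann cells with *Egfl8* alone, at -1.43 in those with *Gfra3* alone (7 and 99 UMIs) and at -0.93 in those with both. Without the cells richest in *Mbp* the first value was -0.15 (-0.38 to 0.08) and the last -0.75.

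*Pmp22* was at 0.81 in cells with *Egfl8* alone and -0.39 in those with both, and at -0.16 and -0.22 without the cells richest in *Mbp*. Over all Schwann cells it was at 0.14, and at -0.29 in fibroblasts and -0.31 in muscle-like cells. Without the 7 cells the Schwann value was -0.36, on the same side as fibroblasts and muscle-like cells, while *Pmp22* was at 1.11 (0.43 to 1.79) in immune-like cells and 0.12 (-0.33 to 0.55) in endothelial-like ones.

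*Mal* was at 0.52 with *Egfl8* alone, -0.67 with both and 0.70 with neither. Without the cells richest in *Mbp* these were 0.03, -0.63 and 0.70.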

How the results depend on the processing

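Of 564 values recomputed under an alternative setting, 427 stayed within their counting interval (counts of genes within 1.5 times), 134 moved further and 3 ratios past 2-fold changed sign. Of 263 ratios with an interval off 0, 8 changed sign, 4 of them the *Pmp22* ratio between libraries (0.14; -0.36 to -0.01). The number of members at least 2-fold higher in the Schwann cells of both libraries, counted without a minimum of UMIs, stayed between 5 and 7 (6 in the main setting). This is another count than the 6 of 6 given for control. Without the cells richest in *Mbp*, an alternative chosen after seeing the data, the *Mbp* ratio of SM22-SmoM2 over control was -0.67 (-0.15 as reported), that of *Egfl8* alone over *Gfra3* alone -0.20 in control (0.51) and 1.08 in SM22-SmoM2 (2.55), and the latter comparison turned to -0.014 for *Mag* in control (1.90) and -0.67 for *Prx* in SM22-SmoM2 (1.16). With at most 5% mitochondrial UMIs, which removes the SM22-SmoM2 cell with most *Mbp*, the first ratio was -0.58, and among cells with Y-linked UMIs and no *Xist* 0.033. The control *Egfl8* over *Gfra3* ratio was 0.85 with 3 of the 4 rule genes required, 1.38 in the Y-linked cells and 0.11 with every cell thinned, where *Prx* in SM22-SmoM2 turned to -0.36. The control share of Schwann cells with *Mbp* (45.1%) was 52.4% with 3 rule genes, 54.0% with the rule applied after thinning, 52.3% in Schwann-like clusters, 52.4% where rule and cluster met, 40.8% in the Y-linked cells, 32.1% at 1500 UMIs and 67.2% unthinned; the SM22-SmoM2 share (34.5%) was 40.9, 27.6 and 53.5% with the rule after thinning, at 1500 UMIs and unthinned. Further myelin genes past 2-fold numbered 14 and 13 with a minimum of 10 UMIs and 14 and 14 with none (9 and 8 as reported), because more genes were then counted. Other causes were not tested. Leaving out cells marked by Scrublet, or keeping those above the mitochondrial limit, left all 49 values of each within those limits. No paired analysis was possible because each genotype has 1 library, and for the same reason no replicate could be left out. At these depths *Mag*, *Prx* and the 12 SM22-SmoM2 cells with *Gfra3* alone allow only wide intervals.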
